A study of Mus musculus with 9 samples.

Results

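The NAIP-NLRC4 sensors were followed in mouse microglia, brain-resident macrophages, 7, 30 and 90 days after a traumatic brain injury. The 5 genes Naip1, Naip2, Naip5, Naip6 and Nlrc4 were taken by symbol from a table of 49671 genes, and each matched 1 row. The members were chosen by the CPM of Naip2, which was higher at day 90 than at day 7 in these same libraries, so values of that contrast are given below as a description. All mice were male C57BL/6 (CD45.2) animals that had received marrow of B6.SJL-Ptprca Pepcb/BoyJ (CD45.1) donors at 8 weeks of age, after 1000 cGy of irradiation with the head shielded and 30 mg/kg busulfan. They were injured at 16 weeks by a controlled cortical impact, in which a 3 mm tip strikes the exposed dura to a depth of 2 mm. CD45.2 microglia were then sorted, a gate that leaves out cells derived from the donor marrow, and 3 libraries were made at each time point (replicates 2, 3 and 4 at days 7 and 30, replicates 1, 3 and 4 at day 90). The labels name no pooling of animals and no batch, and no library of sham-operated or uninjured mice was analysed here. Because all mice were treated and injured at the same ages, time after injury cannot be told apart from age. Nor can it be told apart from time since irradiation, busulfan and transplant.

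NAIP proteins are cytosolic receptors that bind bacterial proteins directly. In mice NAIP1 binds the needle and NAIP2 the inner rod of the type III secretion system, the syringe-like apparatus of many pathogens, while NAIP5 and NAIP6 bind flagellin. A NAIP that has bound its ligand recruits and opens NLRC4, which assembles into a wheel that activates caspase-1. Caspase-1 then matures interleukin-1 beta and interleukin-18 and cleaves gasdermin D, whose fragments form pores in the plasma membrane. Microglia are a main source of interleukin-1 beta in the brain.

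The 4 Naip genes lie side by side on the minus strand of mm10 chromosome 13, within 308807 bases from 100144063 to 100452869. Naip2 (ENSMUSG00000078945) spans 100144063 to 100202092, Naip5 (ENSMUSG00000071203) 100211739 to 100246323, Naip6 (ENSMUSG00000078942) 100281121 to 100317674 and Naip1 (ENSMUSG00000021640) 100407764 to 100452869. Nlrc4 (ENSMUSG00000039193) lies on chromosome 17 from 74425438 to 74459142, also on the minus strand. All 5 are protein-coding in GENCODE M21, and in the longest coding transcript of each no exon overlaps an exon of another annotated gene.

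The paralogs are close copies, so the sequence that the reads come from decides whether their levels can be told apart. Between Naip5 and Naip6, the flagellin receptors, 97.0% of aligned coding bases were identical, against 90.1% to 92.2% for the other 5 pairs. Identical runs between coding sequences reached 229 bases, between Naip5 and Naip6. The libraries were made with a kit that primes at the poly(A) tail, so that reads come from near the 3′ ends of transcripts, and there the copies part. In the last 500 bases of the annotated transcripts, none of the 451 windows of 50 bases in any Naip gene occurred in another Naip. Of those windows, 33 in Naip5 and 1 in Naip2 occurred in transcripts of unrelated genes, and none in Naip1 or Naip6. Windows of 75 bases gave 3 of 426 for Naip5 and 0 for the others. Over whole transcripts, by contrast, 19.4% (Naip2) to 36.9% (Naip5) of the 50-base windows were found in another gene. The sources used here give neither the read length nor the handling of reads with several alignments, and a 3′ end used in these cells may differ from the annotated one.

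**Figure D1:**
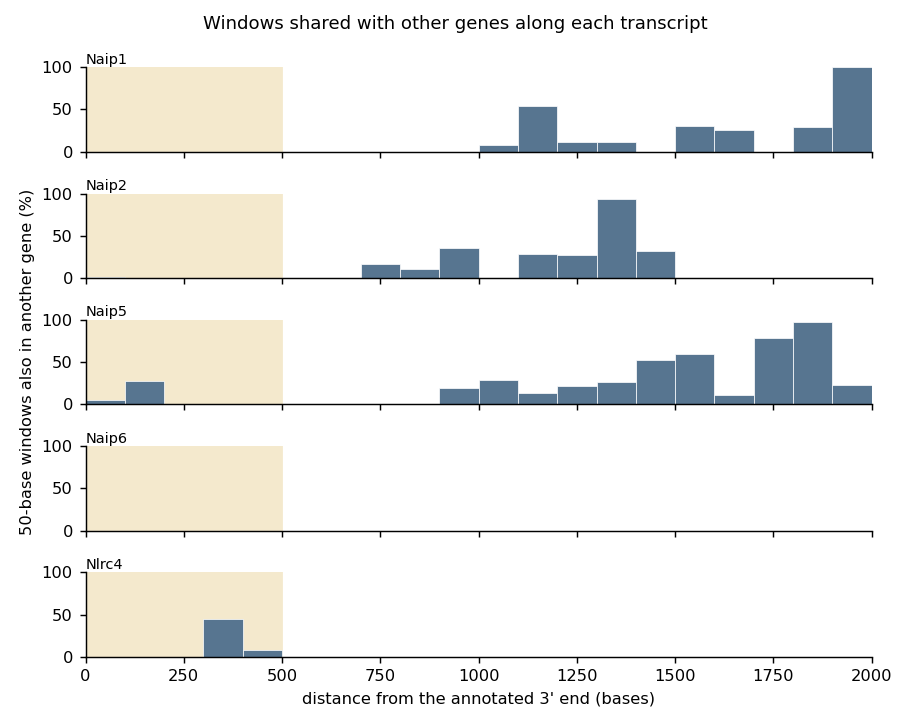
Share of 50-base windows of each member's longest coding transcript that also occur in a transcript of any other gene (y axis, percent, in 100-base bins) against the distance from the annotated 3′ end (x axis, bases), with the last 500 bases shaded. The shaded stretch holds shared windows in Naip5 and Nlrc4 and 1 in Naip2, and windows shared among the Naip genes begin further upstream.

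How near the copies are to each other within the coding sequence can be seen in its last 60 bases, stop codon included, which are given here from GENCODE M21 for 3 of the Naip genes. Capitals mark bases that differ from Naip2, 15 in Naip6 and 16 in Naip1. Naip6 and Naip1 share nearly all of these differences, and the stretch lies upstream of the 3′ UTR, which is 296 bases long in Naip2, 1043 in Naip1 and 2428 in Naip6.
Naip2 coding end (chr13:100144359-100144418, minus strand): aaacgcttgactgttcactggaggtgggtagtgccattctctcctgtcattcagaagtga
Naip6 coding end (chr13:100283549-100283608, minus strand): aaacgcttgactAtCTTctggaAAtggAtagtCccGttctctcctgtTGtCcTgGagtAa
Naip1 coding end (chr13:100408807-100408866, minus strand): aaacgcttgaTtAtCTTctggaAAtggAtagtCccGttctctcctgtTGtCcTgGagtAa

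The promoters of the 3 members with reads are shown because these members all had their lowest mean at day 7. The 250 bases before each start site are from RefSeq (GRCm38.p6), which lists all 5 members. Capitals mark the longest run that Naip2 and Naip5 share, 34 bases.
Naip2 promoter (chr13:100202123-100202372, minus strand): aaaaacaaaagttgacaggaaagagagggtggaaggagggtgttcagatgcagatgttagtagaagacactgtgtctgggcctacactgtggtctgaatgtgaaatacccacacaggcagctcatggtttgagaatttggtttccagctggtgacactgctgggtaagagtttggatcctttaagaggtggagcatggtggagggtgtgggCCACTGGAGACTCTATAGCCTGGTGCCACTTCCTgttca
Naip5 promoter (chr13:100247337-100247586, minus strand): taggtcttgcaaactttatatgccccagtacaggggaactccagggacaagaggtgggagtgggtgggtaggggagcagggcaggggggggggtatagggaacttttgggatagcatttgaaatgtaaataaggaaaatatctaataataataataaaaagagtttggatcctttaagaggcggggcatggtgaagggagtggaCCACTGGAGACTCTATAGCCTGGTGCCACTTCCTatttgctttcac
Naip6 promoter (chr13:100316617-100316866, minus strand): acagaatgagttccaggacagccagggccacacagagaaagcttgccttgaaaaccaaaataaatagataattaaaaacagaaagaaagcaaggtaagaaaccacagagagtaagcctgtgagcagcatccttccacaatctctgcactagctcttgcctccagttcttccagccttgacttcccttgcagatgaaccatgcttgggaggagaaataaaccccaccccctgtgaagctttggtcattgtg
Naip2 and Naip5 aligned over 83 bases of these windows with 77 identical, whereas Naip6 matched Naip2 over no run longer than 8 bases. The RefSeq start of Naip6 lies inside the GENCODE gene, and that of Naip5 lies upstream of it. On either strand, the composite motif of PU.1 and IRF factors (GGAA and GAAA with any 2 bases between) and the interferon response core (GAAA repeated with any 2 bases between) were in none of the 5 member windows, and in 2.30% and 2.98% of all 32851 promoter windows of this length. The PU.1 core AGGAAG, which therefore overlaps no match of these motifs in the member windows, occurred 1 time in Naip2, 1 time in Naip5 and 3 times in Nlrc4, and in 29.5% of all windows. A match of letters is a description and shows no binding.

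Depth ranged from 7210985 to 12965926 gene-assigned reads per library. Values are CPM, reads per gene scaled to a total of 1e+06 in each library, and 3 reads corresponded to 0.231 to 0.416 CPM depending on the library. Microglial markers were high in every library, with the 10 listed genes summing to 14094 to 21461 CPM. Within that range, day 7 replicate 2 stood at 16921 CPM. In bulk samples, fewer cells that express a gene and less RNA per cell cannot be told apart.

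Nlrc4, the adaptor on which every NAIP depends, was listed at 0 in all 9 libraries. Naip1, the needle receptor, was likewise listed at 0 throughout, as was the pseudogene Naip3 of the same cluster. Of the 49671 genes listed, 27178 were at 0 in all 9 libraries. A count of 0 allows up to 0.0308 CPM over the 97458865 reads of all libraries, for counting error only. In the last 500 bases of Nlrc4, 53 of 451 windows of 50 bases but 0 of 426 windows of 75 bases occurred in other genes. Taf9, which encodes a subunit of the general transcription machinery, was also listed at 0 in every library. That gene was looked up after its values were seen. Whether a listed 0 means that a gene was silent was not tested. Of the 5 members, 3 (Naip2, Naip5 and Naip6) therefore had reads and passed the filter of at least 1 CPM in at least 3 libraries.

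Naip2, the receptor of the secretion rod, stood at 8.85, 35.6 and 51.4 CPM in day 7 replicates 2, 3 and 4. At day 30 it stood at 129, 107 and 109 CPM in replicates 2, 3 and 4, and at day 90 at 76.1, 121 and 97.8 CPM in replicates 1, 3 and 4. All 6 later libraries lay above all 3 day 7 libraries, while the day 30 and day 90 ranges overlapped. The means were 31.9 ± 21.5, 115 ± 12.4 and 98.5 ± 22.7 CPM (SD, n = 3 each), so that day 30 was 3.60-fold and day 90 3.08-fold above day 7.

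Naip5, a flagellin receptor, had 1 read in day 7 replicate 2 (0.102 CPM), against 42.0 and 30.7 CPM in day 7 replicates 3 and 4. Its day 30 libraries stood at 51.4, 38.2 and 64.5 CPM and its day 90 libraries at 49.6, 73.6 and 76.2 CPM. The day 7 and day 30 ranges overlapped, and the day 90 libraries lay above all day 7 libraries. Means were 24.3 ± 21.7, 51.3 ± 13.1 and 66.5 ± 14.7 CPM.

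Naip6, the other flagellin receptor, had 3 reads in day 7 replicate 2 (0.305 CPM), with 18.4 and 31.5 CPM in day 7 replicates 3 and 4. It reached 33.01, 75.2 and 32.3 CPM at day 30 and 61.6, 34.3 and 36.2 CPM at day 90. All 6 later libraries lay above the day 7 libraries, but the gap was narrow, from 31.5 CPM in day 7 replicate 4 to 32.3 CPM in day 30 replicate 4. Means were 16.7 ± 15.7, 46.8 ± 24.5 and 44.0 ± 15.2 CPM.

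**Figure D2:**
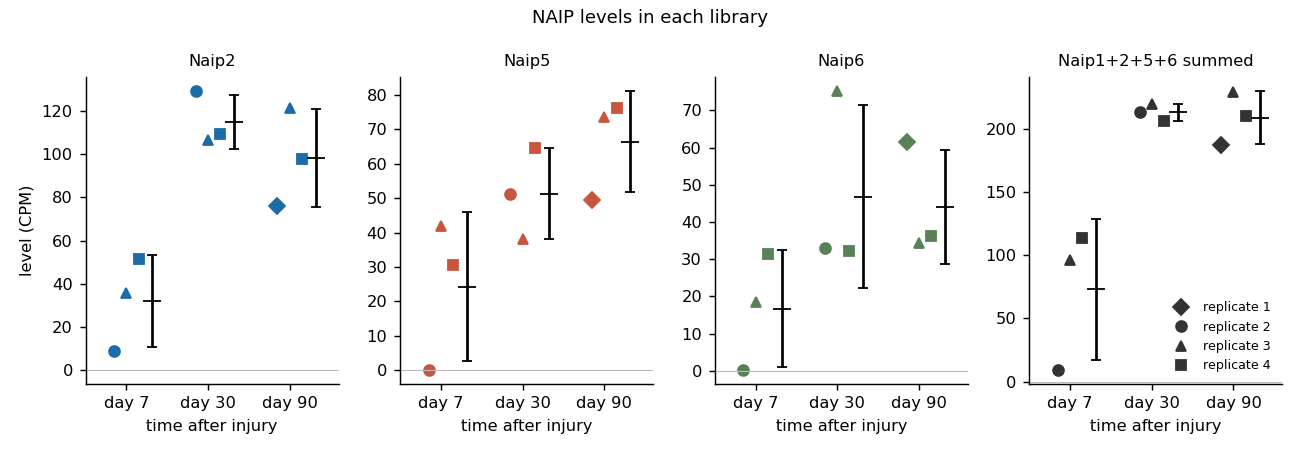
Level in CPM (y axes, linear, each panel with its own range) of Naip2, Naip5, Naip6 and the 4 Naip genes summed, at days 7, 30 and 90 (x axes), with 1 symbol per library by replicate number and the mean ± SD (n = 3) in black. Day 7 replicate 2 is the lowest point in every panel, and the 6 later libraries of the sum lie between 187 and 229 CPM.

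The summed Naip level was 9.26, 96.1 and 113 CPM in day 7 replicates 2, 3 and 4. It does not depend on how assigned reads are divided among the copies, but would lack any read left out for matching several. The day 30 libraries summed to 214, 219.9 and 206 CPM and the day 90 libraries to 187, 229 and 210.2 CPM. Day 30 and day 90 therefore held near-equal sums, 213 ± 6.84 and 209 ± 21.1 CPM, against 73.0 ± 55.8 CPM at day 7. At day 30 the SD of the sum was smaller than that of any of its members (12.4, 13.1 and 24.5 CPM). In day 30 replicate 3 Naip6 was the highest and Naip5 the lowest of that day, and in day 90 replicate 1 Naip6 was the highest of its day while Naip2 and Naip5 were the lowest.

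The division of the Naip reads differed between libraries of the same day. Naip2 took 95.6% of 91 Naip reads in day 7 replicate 2 (95% Wilson interval 89.2% to 98.3%), but 37.1% of 693 and 45.2% of 1284 in day 7 replicates 3 and 4. At day 30 its share was 60.5%, 48.5% and 53.1%, and at day 90 40.6%, 53.0% and 46.5%. The day means of this share were 59.3 ± 31.7%, 54.0 ± 6.09% and 46.7 ± 6.16%, and all 3 ranges overlapped. Without day 7 replicate 2 the day 7 share of Naip2 averaged 41.2%. Naip6 took 34.2% in day 30 replicate 3 and 32.9% in day 90 replicate 1, against 14.9% to 17.2% in the other 4 later libraries, so the same 2 libraries stood out. Because these reads carry no molecular identifiers and are not independent molecules, all intervals cover counting error alone.

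**Figure D3:**
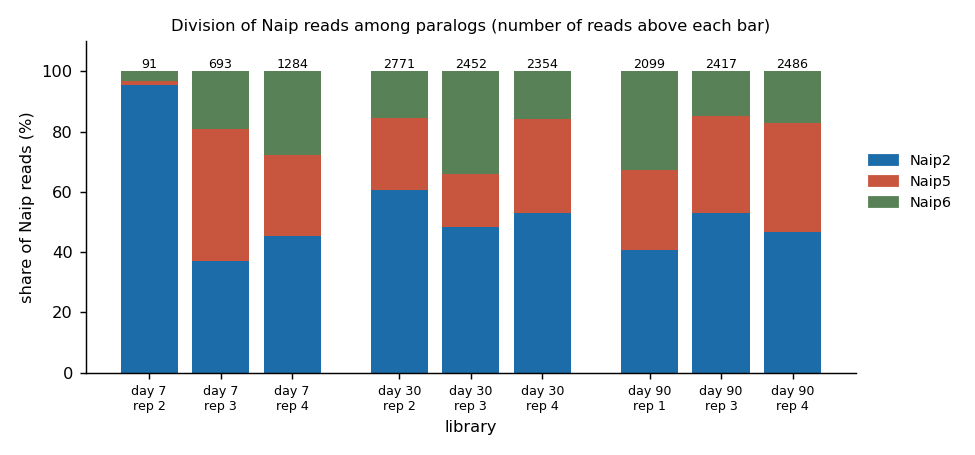
Share of Naip reads (y axis, percent) assigned to Naip2, Naip5 and Naip6 in each library (x axis), with the number of Naip reads above each bar. Day 7 replicate 2 holds 91 reads, 95.6% of them Naip2, and Naip6 is largest in day 30 replicate 3 and day 90 replicate 1.

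Day 30 was first set against day 7, to follow the sensors out of the acute phase. All 3 measured Naip genes had positive log2 changes, of similar size on the scale of log2(CPM + 1) but not as ratios of mean CPM, which were 3.60 for Naip2, 2.12 for Naip5 and 2.80 for Naip6. The change was +2.16 ± 0.69 (SE) for Naip5 and +2.24 ± 0.67 for Naip6, with adjusted p = 0.546 and adjusted p = 0.425 (limma, Benjamini-Hochberg over 15041 genes), so neither passed. Both lay at an unadjusted p under 0.05 on the higher side, as did 3.56% of all genes tested. Naip2 changed by +2.12 ± 0.38, given without a test because the gene was chosen with its levels known. Limma called 0 of 15041 genes here (percent called 0.0%), with 939 genes at an unadjusted p under 0.05, 0 genes called by edgeR and 34 by DESeq2. Of the 3 members with reads, Naip2 and Naip6 had all day 30 libraries above all day 7 libraries, as did 6.85% of all genes tested. The median change of all genes was +0.04.

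These changes rested in large part on day 7 replicate 2. Without that library the day 30 change was +1.40 for Naip2, +0.47 for Naip5 (adjusted p = 0.912) and +0.81 for Naip6 (adjusted p = 0.885), and +1.02 in place of +2.14 for the sum. With the other 8 libraries left out one at a time the change of the sum stayed between +2.12 and +2.76.

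The contrast of the chronic with the acute phase, day 90 against day 7, is the one that brought Naip2 forward and the members are described in it without tests. The log2 changes were +1.88 ± 0.38 for Naip2, +2.53 ± 0.69 for Naip5 and +2.21 ± 0.67 for Naip6, and +2.11 for the sum. Over all genes limma called 6 (0.0399%) higher and 37 (0.246%) in either direction in this comparison. Without day 7 replicate 2 Naip2 changed by +1.16, Naip5 by +0.85, Naip6 by +0.79 and the sum by +0.99. All 3 members had their day 90 libraries wholly above day 7, a pattern held by 5.4% of genes tested.

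Between day 30 and day 90 the ranges of every measured member overlapped. The log2 change was +0.37 ± 0.69 for Naip5 and -0.02 ± 0.67 for Naip6, with adjusted p = 0.982 and adjusted p = 0.9997 (limma), and -0.24 ± 0.38 for Naip2. Neither Naip5 nor Naip6 was called, against 8 genes called of 15041 (0.0532%), all 8 lower at day 90. None of the 3 members had its day 90 libraries wholly above day 30, against 3.75% of genes tested. The sign for Naip6 turned positive when replicate 3 of either day or replicate 4 of day 90 was left out, and that of Naip5 turned negative with replicate number as a block. That block gives no weight to replicate 1 of day 90, a number that no other day has.

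**Figure D4:**
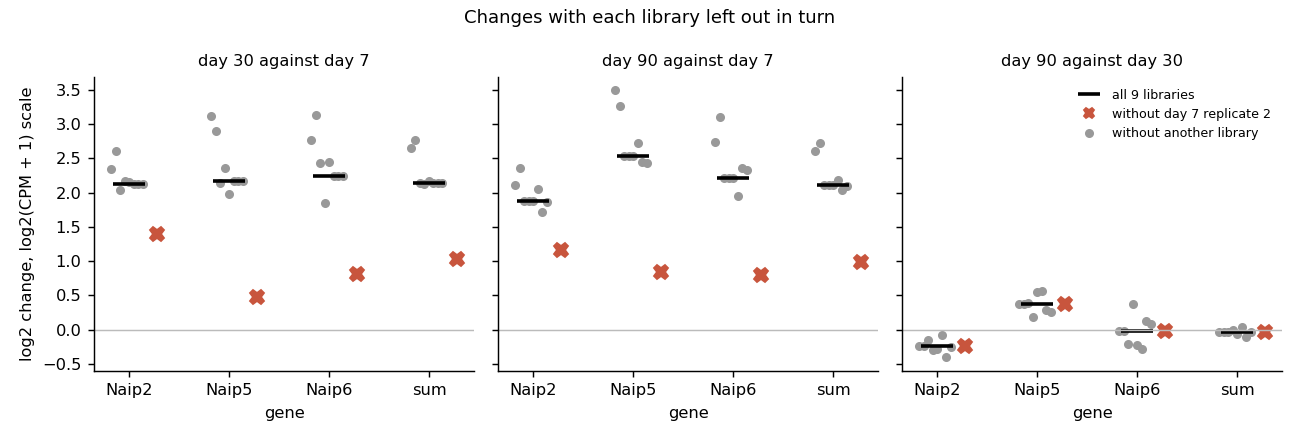
Log2 change on the log2(CPM + 1) scale (y axis) of Naip2, Naip5, Naip6 and their sum (x axis) in the 3 comparisons, with all 9 libraries (black bar), without day 7 replicate 2 (cross) and without each other library (grey points). Against day 7 every value is positive, and the crosses are the lowest values, from +0.47 to +1.40.

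Day 7 replicate 2 was not low in general. Of 6156 genes with at least 10 CPM in each of the other 8 libraries, 5 genes (0.0812%) were more than 5-fold below the lowest of those 8 in this library, and Naip5 and Naip6 were 2 of the 5, beside Acp6, Wipf3 and a gene without a symbol. The same count was between 1 and 31 in the other libraries and held no member there. The threshold was chosen after the values were seen. The genes that flank the cluster did not share the pattern. Smn1, the survival motor neuron gene 6373 bases away, stood at 67.3 CPM in day 7 replicate 2 against 10.3 to 80.4 CPM elsewhere, and Gtf2h2, a transcription and DNA repair factor gene 7349 bases away on the other side, at 104 CPM against 60.6 to 125 CPM.

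Markers of other cells and of tissue handling also differed between the days, and their part in the Naip changes was not tested. The 10 monocyte markers, none at 0 throughout, summed to 249 to 284 CPM at day 7, 123 to 199.9 CPM at day 30 and 127 to 179 CPM at day 90, opposite in direction to the Naip genes. Most of that sum was 1 gene, Fn1, at 205 ± 2.40, 113 ± 21.1 and 116 ± 40.9 CPM at days 7, 30 and 90. Of the 10 markers, 1 had a positive log2 change from day 7 to day 30, and none was called. The 12 neutrophil markers, also none at 0 throughout, summed to 145 to 358 CPM at day 7, with 145 CPM in replicate 2, to 92.6 to 167 CPM at day 30 and to 58.0 to 167 CPM at day 90. One of them, Lcn2, which encodes the iron-binding lipocalin 2, fell from 38.6 ± 29.2 CPM at day 7 to 0.257 ± 0.366 CPM at day 90 (log2 change -4.49, limma adjusted p = 0.0147). That call was lost without day 7 replicate 2 (limma adjusted p = 0.197), without replicate 4 of the same day (adjusted p = 0.149) and without replicate 3 of day 90 (adjusted p = 0.0692). Of the 8 neutrophil markers tested, only Lcn2 was called for day 90 against day 7, and 2 had positive changes. Within day 7, replicate 2 held Lcn2 at 61.9 CPM and S100a8 at 5.90 CPM, and replicate 3 held them at 5.82 and 89.6 CPM. S100a9, Ngp and Camp were likewise higher in replicate 3 than in replicate 2. The 12 endothelial and pericyte markers, none at 0 throughout, summed to 2028 to 3338 CPM at day 7, 1522 to 2072 CPM at day 30 and 1255 to 3806 CPM at day 90. Their median log2 change from day 7 to day 30 was -0.53, with 0 of 12 positive and none called. Immediate early and dissociation genes (19 listed, none at 0 throughout) summed to 37562 to 43725 CPM at day 7, 44262 to 49919 CPM at day 30 and 46766 to 63330 CPM at day 90, in the direction of the Naip genes. The microglial sum was 14094 to 18157 CPM at day 7, 19048 to 20417 CPM at day 30 and 14978 to 21461 CPM at day 90. Of the 10 microglial markers, 9 had positive log2 changes from day 7 to day 30, in the direction of the Naip genes. From day 7 to day 90, 6 of the 10 were positive, and none was called in either comparison. Neuronal markers (12 listed, none at 0 throughout) summed to 1045 to 1224 CPM at day 7, 1481 to 2986 CPM at day 30 and 945 to 1717 CPM at day 90. All 12 had positive log2 changes from day 7 to day 30, also in the direction of the Naip genes. From day 7 to day 90, 8 of the 12 were positive, and none was called in either comparison. Meg3 made up most of the neuronal sum, at 945 ± 79.5, 1792 ± 681 and 999.8 ± 343 CPM at days 7, 30 and 90.

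Of 39 other genes of the pathway listed from general knowledge, 32 could be tested. None was called in any of the 3 comparisons, and an unadjusted p under 0.05 was reached by 2 of them between days 7 and 30, by 1 between days 30 and 90 and by 1 between days 7 and 90. Of all genes tested 6.24%, 5.03% and 7.73% reached it, so these counts of 32 lay near or below the background. Their median log2 change from day 7 to day 30 was +0.14 with a range of -1.26 to +1.16. The 3 Naip genes lay above that range with all 9 libraries on the log2(CPM + 1) scale. Without day 7 replicate 2 the changes of Naip5 (+0.47) and Naip6 (+0.81) lay inside the range found with all 9. The range of the other pathway genes without that library is not given here. The genes below the unadjusted 0.05 at day 30 were Nlrp3, the sensor of membrane damage and ion efflux, and Tlr4, the lipopolysaccharide receptor. Nlrp3 stood at 464 ± 78.4 CPM at day 7 and 648 ± 84.8 CPM at day 30 (log2 change +0.49), and Tlr4 at 21.3 ± 5.92 and 48.7 ± 12.1 CPM (+1.16).

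Downstream of the sensors, Pycard, which encodes the adaptor ASC, stood at 108 ± 43.4, 79.5 ± 18.9 and 110 ± 38.1 CPM at days 7, 30 and 90. Casp1, the protease that NLRC4 activates, stood at 18.98 ± 5.25, 28.5 ± 5.32 and 32.5 ± 12.7 CPM. Casp4, which encodes the lipopolysaccharide-sensing caspase-11 of mice, stood at 98.1 ± 16.9, 105 ± 22.3 and 137 ± 29.2 CPM. Gsdmd, the pore protein gene, stood at 18.6, 48.7 and 74.1 CPM in day 7 replicates 2, 3 and 4, and at 67.6 ± 8.88 and 55.9 ± 4.49 CPM at days 30 and 90. Its lowest library was day 7 replicate 2, in which the Naip genes were also lowest. Of the 32 tested pathway genes, only Aim2 and Spi1 were also lowest in that library. Pycard, Casp1, Casp4 and all the rest were lowest elsewhere. The share of all genes that were lowest in that library was not counted. A link to the Naip levels was not tested.

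The cytokine gene Il1b stood at 378 ± 120.4, 445 ± 12.4 and 294 ± 200.1 CPM at the 3 days, and Il18 at 15.1 ± 7.33, 22.6 ± 8.08 and 20.2 ± 6.21 CPM. Il1b was the 1 pathway gene with an unadjusted p under 0.05 for day 90 against day 30 (log2 change -0.82, limma adjusted p = 0.842). Irf8, a transcription factor that drives Naip and Nlrc4 expression in mouse macrophages, stood at 1026 ± 299, 1109 ± 103 and 946 ± 213 CPM. In day 7 replicate 2, where the Naip sum was lowest, Irf8 was at 1226 CPM, beside 1224 CPM in day 30 replicate 4, the highest of the others. Spi1, which encodes the macrophage factor PU.1, stood at 234 ± 40.2, 315 ± 63.8 and 303 ± 59.0 CPM. Its lowest library was day 7 replicate 2, at 195 CPM, against 232 to 371 CPM in the others. Links of Irf8 and Spi1 to the Naip levels were not tested.

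**Figure D5:**
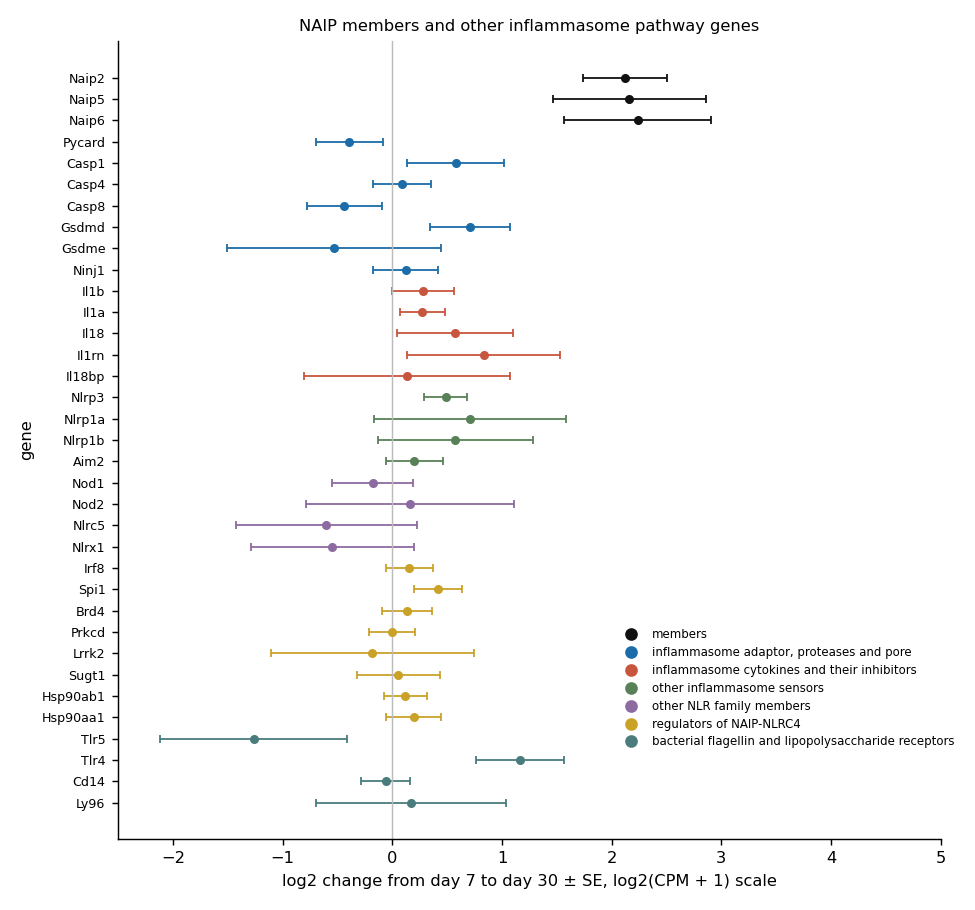
Log2 change from day 7 to day 30 on the log2(CPM + 1) scale ± SE (x axis) of the 3 Naip genes with reads and of 32 other pathway genes (y axis), coloured by list. The Naip genes lie between +2.12 and +2.24 and the others between -1.26 and +1.16, and none of the 32 other genes was called. Without day 7 replicate 2 Naip5 and Naip6 stood at +0.47 and +0.81. With all 9 libraries, edgeR and DESeq2 gave Naip5 +1.08 and +1.06. The other pathway genes are drawn only for the main fit.

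Across the 9 libraries the log2 levels of the Naip genes correlated with a Pearson r of 0.908 for Naip2 and Naip5, 0.896 for Naip2 and Naip6 and 0.914 for Naip5 and Naip6. Over the 8 libraries without day 7 replicate 2 these were 0.593, 0.485 and -0.077, so that the likeness of Naip5 to Naip6 lay in that 1 library. The libraries share the time points, and no p is given. The genes most like Naip2 were Zfp219, Haus3, Pink1, Sra1 and Csnk1g2, with r between 0.943 and 0.964 over 9 libraries and between 0.755 and 0.925 without day 7 replicate 2. Those most like Naip5 were Sra1, Gmpr, Slc18b1, Csnk1g2 and Fam69b (0.953 to 0.977, and 0.399 to 0.776 without that library), and those most like Naip6 were Zscan18, Grm5, Srrd, Atp6v1g2 and Tmem141 (0.936 to 0.958, and 0.289 to 0.703).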

How the data were processed

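Messenger RNA of sorted CD45.2 microglia was measured in 9 QuantSeq 3′ libraries, 3 per time point. The deposited table gives CPM, which the authors made with bcl2fastq, STAR and HTSeq on mm10, per the submitters' processing notes; the sources used here give no version, annotation or strand setting. Each column sums to 1e+06, and dividing by its smallest step gave whole reads for 100% of values (tolerance 1e-06), 7210985 to 12965926 per library. Members and gene lists were chosen with earlier results of these data known.

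The 15041 genes that reached 1 CPM in 3 or more libraries were analysed as log2(CPM + 1) in limma 3.58.1 (R 4.3.3), 1 mean per day over all 9 libraries. Two-sided p-values were adjusted over all of them by Benjamini-Hochberg, at a threshold of 0.05. The labels give 9 mice for all libraries without tying a mouse to each, so p-values measure the spread between these samples, which may be technical. The limma step was tested on simulated data. Other settings tried were a pseudocount of 0.1 or 5 CPM, a filter at 10 CPM or none, median-of-ratios scaling, edgeR 4.0.16 and DESeq2 1.42.0 on recovered reads, a replicate block, and each library left out. Named genes were the 5 members, fixed pathway genes, pathway-list genes past the adjusted threshold (there were none), the 5 genes most correlated with each member (predicted gene models left out) and the nearest tested neighbours; genes past an unadjusted p and Lcn2 of the neutrophil list were named after their values were seen. Transcript sequences came from GENCODE M21 and promoters from RefSeq. Shared windows were searched on both strands of all annotated transcripts, not of the genome. The coding end of 1 further Naip gene is not reported here.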

Additional observations from a re-analysis of the deposited data

How the results depend on the processing

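All 132 log2 changes of members and of the Naip sum against day 7, over all alternatives, were positive. They are not independent results, because all draw on the same day 7 libraries and include the contrast that brought Naip2 forward. The filter settings, and leaving out a library of the day not compared, cannot change these values. The number of genes called for day 30 against day 7 was 0 in limma, 3 with a pseudocount of 5 CPM, 34 with DESeq2 and 0 to 8 with 1 library left out. For day 90 against day 30 it was 8 in limma, 0 with no filter, 27 with DESeq2 and 4 to 17 with 1 library left out. For day 90 against day 7 it was 37 in limma, 1 with no filter, 22 with edgeR, 130 with DESeq2 and 18 to 65 with 1 library left out, the lowest without day 7 replicate 2. The causes were not tested. For day 90 against day 30, the change of Naip6 turned to +0.37 with day 30 replicate 3 left out, and to +0.13 and +0.09 with replicates 3 and 4 of day 90 left out, in a range of -0.29 to +0.37. For day 30 against day 7, edgeR and DESeq2 on recovered reads gave Naip2 +1.84 and +1.83, Naip5 +1.08 and +1.06 and Naip6 +1.48 and +1.47. In limma, pseudocounts of 0.1 and 5 CPM gave Naip2 +2.174 and +1.919, Naip5 +2.976 and +1.435 and Naip6 +2.804 and +1.549. Over all alternatives the adjusted p for Naip5 ran from 0.0567 to 1 and that for Naip6 from 0.0493 to 1. Deviations from the day means correlated between -0.045 and 0.039 over 7 same-numbered pairs and between -0.058 and 0.041 over the others. These values gave no sign that replicate numbers pair the samples, but pairing that touches only some genes could be missed. With a replicate block, 10 genes were called for day 30 against day 7, Naip6 among them (+2.24, limma adjusted p = 0.0493). For day 90 against day 30 the block gave -0.27 for Naip5, -1.09 for Naip6 and -0.52 for the sum. Number 1 occurs only at day 90, so the block gives that library no weight, and replicate 2 of days 7 and 30 enters the estimate. In replicates 3 and 4, Naip5 was itself higher at day 90 (73.6 and 76.2 CPM) than at day 30 (38.2 and 64.5 CPM). The 1 and 3 reads of Naip5 and Naip6 in day 7 replicate 2 carry exact Poisson intervals of 0.00258 to 0.567 and 0.0629 to 0.892 CPM. The limma call of Lcn2 was also lost with a pseudocount of 0.1 CPM (adjusted p = 0.179), with no filter (adjusted p = 0.4497) and with the replicate block (adjusted p = 0.0539).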

Other observations

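Other genes of the NLR family, to which the NAIPs and NLRC4 belong, were measured in the same libraries. Nod1, a receptor of bacterial cell wall fragments, stood at 50.7 ± 10.1 CPM at day 7, 44.2 ± 4.33 CPM at day 30 and 30.4 ± 14.6 CPM at day 90 (SD, n = 3 each). Its log2 change from day 7 to day 90 was -0.80, with a limma adjusted p = 0.619, and it was not called. Nlrc5, a regulator of MHC class I genes, stood at 12.3 ± 9.31, 6.86 ± 3.75 and 3.72 ± 2.20 CPM, and was not called in any of the 3 comparisons. Nlrp10, Nlrp12, Nlrp2 and Ciita were listed at 0 in all 9 libraries, as were 27178 of all 49671 genes listed.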
